A study of Mus musculus with 7 samples.

Results

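The genes described here are 9 TRIM genes of mouse chromosome 7, namely Trim30a, Trim30b, Trim30c, Trim30d, Trim12a, Trim12c, Trim5, Trim34a and Trim21. They were taken by symbol from a deposited table of counts per gene, in which all 9 had a row among 20343 complete rows. The table held 24 other genes with a Trim symbol, 8 of them on chromosome 7. Messenger RNA came from the apical myocardium of NSG-DR1 mice, labelled as strain NSG-DRB1*0101, which lack mature T, B and NK cells of their own and express the human class II molecule HLA-DR1. The 4 control hearts came from mice left untreated, and the 3 transferred hearts from mice that had been given human CD4+ T cells 6 weeks before collection. All 7 mice therefore shared the immunodeficiency and the human HLA-DR1, and the groups differed in the transfer. The labels used here give no age, no promoter that drives HLA-DR1 and no statement that hearts were pooled. Each heart carries its own identifier in the labels, and hearts are numbered here in accession order within a group.

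TRIM proteins share a tripartite motif of a RING domain with ubiquitin ligase activity, a B-box and a coiled coil, and many of them end in a SPRY (B30.2) domain that binds the target. In primates TRIM5 is known as a restriction factor that recognises retroviral capsids. In the mouse the matching locus has expanded into the Trim12 and Trim30 families. Many of these genes are induced by type I interferon, through interferon-stimulated response elements to which proteins of the IRF family bind. TRIM30a (the TRIM30 protein of earlier work) is known as a brake on Toll-like receptor signalling to NF-kB. TRIM21 (Ro52) is a cytosolic antibody receptor and ubiquitin ligase that targets antibody-coated viruses.

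On build GRCm38.p6, 8 of the 9 genes lay within 263.4 kb of chromosome 7, from 104244448 to 104507853. From the end of Trim21 (102557920 to 102565482) to the start of this block was 1.68 Mb. In order along the chromosome the block held Trim34a (104244448 to 104262244), Trim5 (104263386 to 104288254), Trim12a (104299893 to 104315558) and Trim12c (104338754 to 104353358). These were followed by Trim30b (104355398 to 104358646), Trim30c (104379117 to 104400852), Trim30a (104409025 to 104465193) and Trim30d (104470014 to 104507853). Trim34a is on the plus strand and the other 8 genes are on the minus strand. All are protein-coding, and counts were taken over their combined exons.

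Promoter windows of these genes are shown because 7 of the 9 contained the core letters of an interferon-stimulated response element close to their start. RefSeq (GRCm38.p6) gave a window for all 9 members, from 250 bases before to 50 bases after the annotated start, with a second window for Trim30a. The letters searched were GAAA, any 2 bases and GAAA again, on both strands. They were present in 8 of the 10 windows. Of all 27025 genes with a window, 3.99% had them in at least 1 window. The gamma-activated sequence letters TTCNNNGAA were present in 1 member, Trim30c, against 9.55% of all genes. The stretches below run 5′ to 3′ on the gene's strand, with the match in capitals (the reverse complement of the searched letters except in Trim21). They are given in the order Trim30a (chr7:104465194-104465313, minus strand), Trim30d (chr7:104507850-104507969, minus strand), Trim30c (chr7:104400880-104400999, minus strand), Trim5 (chr7:104288107-104288226, minus strand) and Trim12c (chr7:104353350-104353469, minus strand).
Trim30a: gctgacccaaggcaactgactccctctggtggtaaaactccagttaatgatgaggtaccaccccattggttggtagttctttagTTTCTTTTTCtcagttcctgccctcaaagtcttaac
Trim30d: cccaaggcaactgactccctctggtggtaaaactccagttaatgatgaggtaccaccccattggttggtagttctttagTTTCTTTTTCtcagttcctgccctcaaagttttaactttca
Trim30c: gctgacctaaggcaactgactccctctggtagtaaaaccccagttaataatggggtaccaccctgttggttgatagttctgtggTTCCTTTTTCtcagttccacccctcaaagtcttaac
Trim5: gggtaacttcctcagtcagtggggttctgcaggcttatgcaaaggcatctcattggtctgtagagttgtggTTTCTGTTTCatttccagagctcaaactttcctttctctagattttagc
Trim12c: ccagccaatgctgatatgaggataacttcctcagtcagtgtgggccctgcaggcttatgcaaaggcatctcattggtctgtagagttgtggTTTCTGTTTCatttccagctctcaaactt

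In Trim30c the capitals mark the bases aligned with the Trim30a match, and these are not a match themselves. They differ from it by T3C, counted from 1 at the first capital. They lie further from the annotated start, at positions -137 to -128, against -36 to -27 in Trim30a and -41 to -32 in Trim30d. The Trim30a and Trim30d windows were 93.9% identical over 294 aligned columns, and Trim30a and Trim30c 89.2% over 176. Trim5 and Trim12a were identical over all 241 aligned columns, and Trim5 and Trim12c shared 94.2% over 278. Between the families the alignments were shorter, with 70% identity over 70 columns between Trim12c and Trim30a. Matches in windows this alike within a family are not independent of each other, which limits the comparison with the share of all genes.

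In the remaining windows with a match it lay just after the annotated start, so only 30 bases of each are shown. They are the second Trim30a start (chr7:104446104-104446133, minus strand), Trim12a (chr7:104315466-104315495, minus strand), Trim34a (chr7:104244457-104244486, plus strand) and Trim21 (chr7:102565447-102565476, minus strand).
Trim30a, second start: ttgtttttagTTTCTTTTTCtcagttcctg
Trim12a: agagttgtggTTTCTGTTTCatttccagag
Trim34a: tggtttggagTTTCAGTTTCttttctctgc
Trim21: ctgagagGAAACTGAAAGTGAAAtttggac

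Trim21 held 2 overlapping matches, at positions 14 to 23 and 20 to 29 after its start. The Trim30b window had no match to these letters. A match describes the letters in the window, and the data here do not include binding.

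Reads that fit several of these genes matter for how the values are read. The table holds fractional counts, as obtained when 1 read is shared out over several matching genes. Fractions were present in 4 of 7 hearts for Trim30a, Trim30d and Trim34a, in 6 for Trim5 and Trim12c, in 5 for Trim12a, in 3 for Trim30b, in 1 for Trim30c and in none for Trim21. Every fractional part in the Trim30 genes and Trim34a was 0.5, while Trim5 and Trim12c also had parts such as 0.17, 0.33, 0.67 and 0.83. In GENCODE M21 transcripts of the same build, 29.5% of the 75-base windows of Trim34a, the length of a read here, were also in Trim34b, a neighbouring TRIM gene, and 19.1% in Gm47248. In all 48.6% of Trim34a windows were in some other gene, against 20.6% for Trim5, 17.3% for Trim12c, 5.58% for Trim12a and 5.41% for Trim30d. Trim5 shared 12.4% of its windows with Trim12c and 4.64% with Trim12a. Trim30a shared 4.98% with Trim30d, and no window of Trim30c or Trim21 was in any other gene. The values of Trim34a, Trim5 and Trim12c are therefore the most uncertain as to which gene the reads came from, and those of Trim12a, Trim30a and Trim30d less so.

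Column totals ran from 16402194 to 25190580 counts over the part of the genome analysed, chromosomes 1 to 7 and the start of chromosome 8. Levels are given as CPM, the counts of a gene per 1000000 counts of the heart after TMM scaling of the totals. On this scale 3 counts correspond to between 0.115 and 0.189 CPM, and such floors cover counting error only. The mouse lymphocyte genes Trbc1, Trbc2, Klrb1c and Ncr1 had 0 counts in every heart. The 8 T cell markers in the table summed to 29.9 to 38.3 CPM in controls and 28.5 to 36.01 CPM after transfer, most of it from Cd28. Cd28 averaged 28.6 CPM in controls, in mice that lack mature T cells, so this sum is not read as an amount of T cells. The markers are mouse genes counted on the mouse build, so they do not measure the human T cells that were transferred. Only 3 of the 8 were tested and none passed the adjusted threshold used below. Of these Cd247 was lower at an unadjusted p of 0.0153 (edgeR adjusted p = 0.278), and the untested Cd2 had 12 counts after transfer against 2 in controls. None of the 7 B and NK cell markers passed the expression filter. Cardiomyocyte markers summed to between 78782 and 106319 CPM in the 7 hearts. In whole tissue, fewer cells of a type and less RNA per cell cannot be told apart.

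Compared between transferred and control hearts, none of the 8 tested members passed the edgeR quasi-likelihood test at a Benjamini-Hochberg adjusted p-value of 0.05, which 0.235% of all 7667 tested genes did (0.13% higher). The fitted fold change was 1.96 to 2.57 for the 3 tested Trim30 genes, 1.79 for Trim34a and 1.48 for Trim21. It was 1.17 for Trim5, 1.14 for Trim12c and 0.822 for Trim12a. The fitted value was above no change in 7 of 8 members, where 49.7% of all tested genes were, and at least 1.5 times in 4 of 8, where 5.43% were. At an unadjusted p-value under 0.05, 5 of 8 were higher (Trim30a, Trim30c, Trim30d, Trim34a and Trim21) and none lower, where 7.17% of all tested genes were higher by that rule. Without transferred heart 1 only 2 of 8 members had an unadjusted p-value under 0.05, beside 14.6% of all genes in either direction, and 2 of 8 a fold change of at least 1.5, beside 6.53%. Within the hearts with number identifiers 3 of 8 had such a p-value, beside 13.6% of all genes. In 3 of 8 (Trim30a, Trim30c and Trim21) every transferred heart was above every control heart, as in 6% of all tested genes. Trim30c passed the expression filter only through the transferred hearts, so its place in these counts is not independent of its direction. Trim12a, the one lower member, reached the filter's cutoff in 3 control and 2 transferred hearts, so the control hearts alone would have admitted it. Trim30b was under the filter and was not tested. The median log2 fold change was 0.70 over the 8 tested members and -0.0020 over all tested genes.

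**Figure D1:**
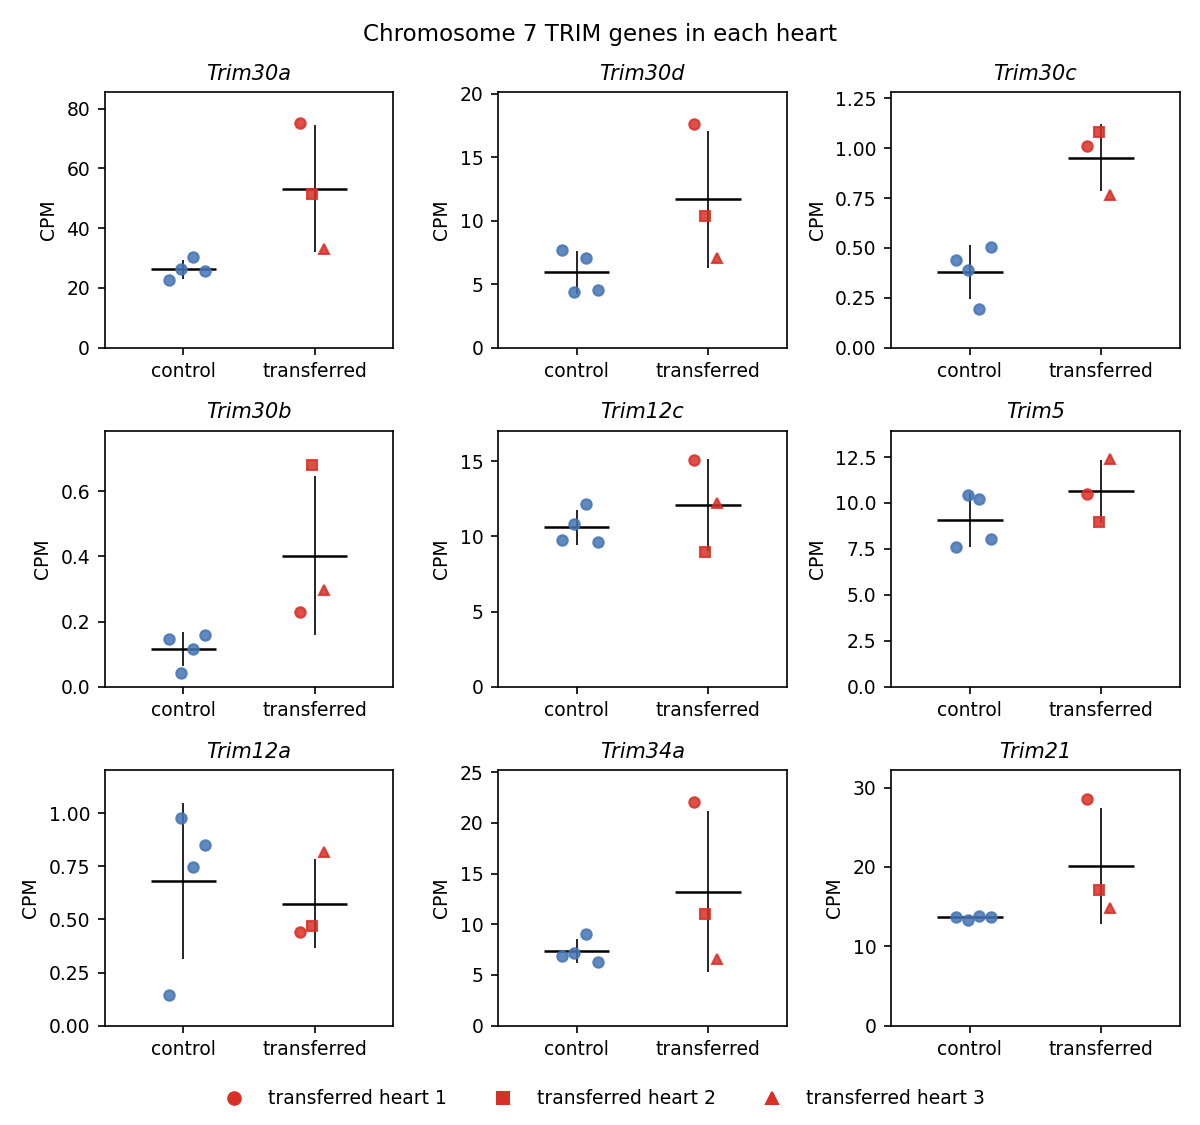
CPM of the 9 TRIM genes in each heart, with circles in blue for control hearts and a separate red symbol for each transferred heart. Horizontal lines are group means and vertical lines 1 SD. In Trim30a, Trim30d, Trim34a and Trim21 transferred heart 1 is the highest and transferred heart 3 the lowest of the transferred hearts.

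Trim30a had the highest level of the 9 genes. It measured 22.5, 26.5, 30.3 and 25.5 CPM in control hearts 1 to 4, and 75.2, 51.5 and 33.0 CPM in transferred hearts 1 to 3. The groups did not overlap, but transferred heart 3 was only a little above control heart 3. The mean was 26.2 ± 3.22 CPM (SD, n = 4) in controls and 53.2 ± 21.2 CPM (SD, n = 3) after transfer. The log2 fold change was 1.02 with a standard error of 0.24 (edgeR adjusted p = 0.127). Trim30a was past the threshold with DESeq2 (adjusted p = 0.00119), a rule that 3.26% of all genes met. It was also past it in edgeR without transferred heart 3 (adjusted p = 0.0141), where 1.8% of all genes passed.

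Trim30d, the neighbouring paralogue, measured 7.68, 4.41, 7.10 and 4.51 CPM in control hearts and 17.6, 10.4 and 7.06 CPM in transferred hearts. Transferred heart 3 lay within the control range, so the groups overlapped. For Trim30d the log2 fold change was 0.97 with a standard error of 0.32 (edgeR adjusted p = 0.259). The predicted pseudogene Gm16464 lies inside Trim30d on the same strand, and it measured 17.1 CPM in controls and 17.0 CPM after transfer.

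Trim30c was expressed far lower, at 0.437, 0.387, 0.192 and 0.505 CPM in control hearts and 1.01, 1.08 and 0.766 CPM in transferred hearts. It was the one tested member of the Trim30 family in which transferred heart 2, not heart 1, was the highest. All 3 transferred hearts were above the controls, on 58.5 counts in all against 31. The fit gave Trim30c a log2 difference of 1.36 ± 0.41 (SE, edgeR adjusted p = 0.208).

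Trim30b, at 0.115 ± 0.0515 CPM (SD, n = 4) in controls, had 3 or fewer counts in each control heart. It had 3, 1, 3 and 2.5 counts in control hearts and 4.5, 14.5 and 6 counts in transferred hearts. The groups did not overlap, as in 1.71% of the 4574 genes under the filter that had a count in any heart. Gm38525, a protein-coding gene model that overlaps Trim30b on the same strand, was also highest in transferred heart 2. It was at 0.456, 1.97 and 0.790 CPM in transferred hearts against 0.681, 0.215, 0.230 and 0.284 CPM in control hearts 1 to 4, so its groups overlapped. Which of the 2 overlapping models the reads came from is uncertain, and no fold change is given for Trim30b.

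Because reads can move between copies, the 4 Trim30 genes were also summed. Their summed level was 30.8, 31.3, 37.7 and 30.7 CPM in control hearts and 94.1, 63.7 and 41.1 CPM in transferred hearts. The ratio of the group means was 2.03, close to the fold change of Trim30a alone, which took between 73.2% and 84.6% of the sum in each heart. Trim30d took between 14.1% and 24.9%. Any division of reads among the 4 copies leaves this sum as it is.

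Trim5 and Trim12c are mouse relatives of the primate restriction factor. Trim5 measured 7.58, 10.5, 10.2 and 8.06 CPM in control hearts and 10.5, 8.96 and 12.4 CPM in transferred hearts. Transferred heart 2 lay among the controls and heart 1 was level with the highest of them. Its log2 fold change was 0.22 with a standard error of 0.18 (edgeR adjusted p = 0.664). Trim12c measured 9.79, 10.8, 12.2 and 9.61 CPM in control hearts and 15.1, 8.98 and 12.2 CPM in transferred hearts. Here transferred heart 2 was below every control heart, transferred heart 1 was above them and heart 3 was level with the highest control. The log2 fold change of Trim12c was 0.19 with a standard error of 0.18 (edgeR adjusted p = 0.740).

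Trim12a was near the detection limit, with between 3 and 22.7 counts in a heart. It was at 0.680 ± 0.368 CPM (SD, n = 4) in controls and 0.575 ± 0.209 CPM (SD, n = 3) after transfer, and control heart 1 was the lowest of the 7. Its log2 fold change was -0.28 with a standard error of 0.56 (edgeR adjusted p = 0.885). The sum of Trim5, Trim12a and Trim12c was 20.4 ± 2.75 CPM (SD, n = 4) in controls and 23.3 ± 4.26 CPM (SD, n = 3) after transfer, a ratio of 1.15 with overlapping groups.

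Trim34a, a paralogue of Trim5 on the opposite strand, measured 6.88, 7.12, 9.07 and 6.31 CPM in control hearts and 22.1, 11.002 and 6.59 CPM in transferred hearts. Transferred hearts 1 and 2 were above every control heart and heart 3 was among them. Its log2 fold change was 0.84 with a standard error of 0.35 (edgeR adjusted p = 0.370). Trim34b, with which Trim34a shares reads, had 14.7, 5.92 and 3.43 CPM in transferred hearts against 5.68 ± 0.953 CPM (SD, n = 4) in controls. The pair together, a sum that does not account for windows shared with Gm47248, measured 36.8, 16.9 and 10.03 CPM in transferred hearts and 10.98 to 15.1 CPM in controls, so heart 3 was below every control heart.

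Trim21 had a narrow spread among controls, at 13.7, 13.3, 13.9 and 13.8 CPM. It measured 28.5, 17.1 and 14.9 CPM in transferred hearts, each above the controls. No count of Trim21 was fractional. In the fit Trim21 differed by 0.56 on the log2 scale with a standard error of 0.20 (edgeR adjusted p = 0.292).

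Levels of different genes were compared per kilobase of exon. In control hearts the mean was 6.57 CPM per kb for Trim30a, 4.89 for Trim21, 2.84 for Trim12c, 2.74 for Trim34a, 2.18 for Trim5 and 1.52 for Trim30d. It was 0.0762 for Trim30c, 0.0707 for Trim12a and 0.0416 for Trim30b. The control ranges of Trim30a and Trim21 did not overlap each other or those of any other member. Those of Trim12c and Trim34a overlapped, as did those of Trim34a and Trim5, of Trim5 and Trim30d, and of the 3 lowest genes. After transfer Trim30a was again the highest on average, at 13.3 CPM per kb, and Trim21 the second, at 7.23.

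Whether one member moved more than another was tested on the log2 ratio of their counts within each heart, which no scaling between hearts affects. These 3 ratios were chosen after the values were seen. The ratio of Trim30a to Trim12c was 1.31 ± 0.0860 (SD, n = 4) in controls and 2.09 ± 0.580 (SD, n = 3) after transfer. The difference of 0.78 had an exact two-sided permutation p of 0.0286, the smallest that 35 splits allow, and 0.0857 after adjustment over the 3 ratios. All 3 transferred hearts were above all controls, with heart 3 at 1.43 and the highest control at 1.41. The ratio of Trim30a to Trim21 differed by 0.45 (exact permutation p = 0.0571, adjusted 0.0857). The ratio of Trim34a to Trim12c differed by 0.52 (exact permutation p = 0.286, adjusted 0.286). The adjustment covers the 3 ratios only and not their choice after the values were seen, so the p-values are not read as evidence. A ratio within a heart also keeps any reads that Trim12c shares with other genes. With 3 ratios, a single one at the smallest possible p cannot pass 0.05 after adjustment, so these values do not settle whether members differed.

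**Figure D2:**
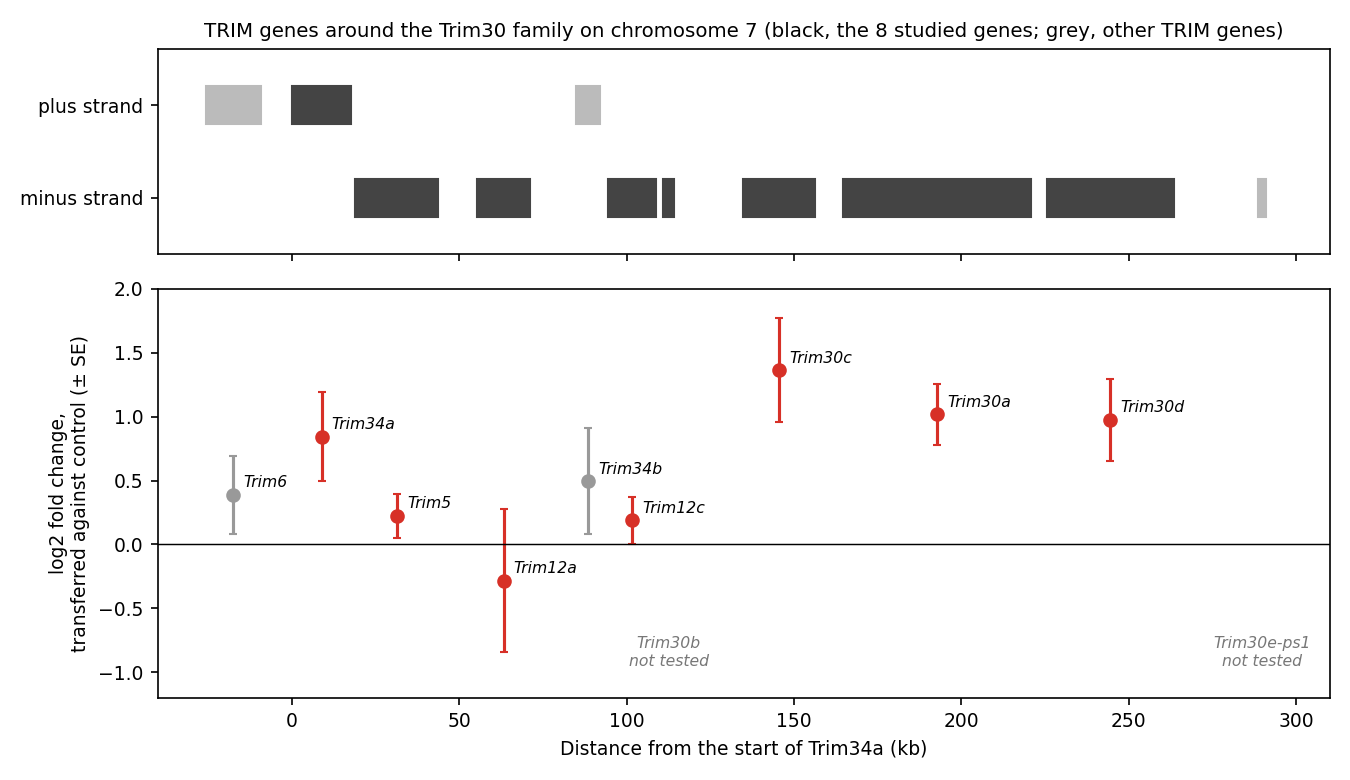
Positions of the clustered TRIM genes by strand (upper panel, distance from the start of Trim34a in kb) and their log2 fold change with its standard error (lower panel). Trim30a, Trim30c and Trim30d at the right lie between 0.97 and 1.36, and Trim5, Trim12a and Trim12c lie between -0.28 and 0.22. Trim30b was not tested and has no value.

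The spread among transferred hearts was large for most members. Without transferred heart 1 the log2 fold change of Trim34a was 0.26, of Trim21 0.23, of Trim30d 0.55 and of Trim30a 0.69. Trim30c was at 1.33 without that heart. Transferred heart 1 and control heart 1 are also the 2 hearts whose identifiers start with letters, which the labels do not explain. Between these 2 hearts the log2 difference was 1.72 for Trim30a, 1.15 for Trim30d, 1.61 for Trim34a, 1.03 for Trim21 and 0.60 for Trim12c. Within the 5 hearts with number identifiers the log2 fold change was 0.63 for Trim30a (edgeR adjusted p = 0.229), 0.71 for Trim30d, 1.42 for Trim30c, 0.24 for Trim34a, 0.24 for Trim21 and -0.03 for Trim12c. Every tested member except Trim12a and Trim12c was positive in both comparisons.

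**Figure D3:**
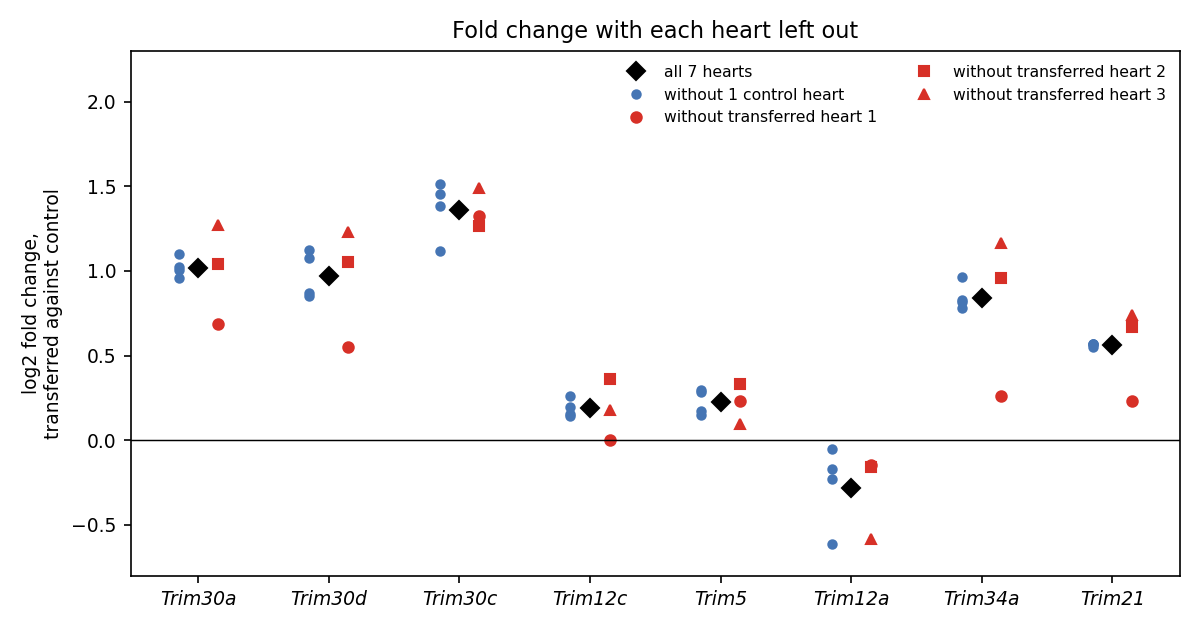
Log2 fold change of each tested member with all 7 hearts (black) and with 1 heart left out (blue, a control heart; red, a transferred heart). Trim34a drops from 0.84 to 0.26 without transferred heart 1, and Trim30a from 1.02 to 0.69.

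The other genes of the interferon pathway were described from lists chosen with earlier results of these data known. Of 25 interferon ligand and receptor genes listed, 19 were in the table. Ifng, Ifnar1, Ifnar2, Ifngr1, Ifngr2 and Il10rb had no row in the part of the genome analysed, so their levels are not known here. Of the 19 genes, 17 had 0 counts in every heart, which includes Ifnb1 and the Ifna genes listed. At 0 counts the depth allows a level of up to 0.115 to 0.189 CPM, depending on the heart. Ifnlr1, the interferon lambda receptor chain, was the one tested gene of this list, at 0.21 on the log2 scale (edgeR adjusted p = 0.734).

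Of 13 tested genes for nucleic acid sensing, signalling and IRF proteins, 10 were higher and 3 lower on average, and none passed the adjusted threshold. At an unadjusted p-value under 0.05, 7 were higher, beside 7.17% of all tested genes. Irf7, the IRF that amplifies interferon production, measured 22.6 to 25.9 CPM in controls and 931, 119 and 27.3 CPM in transferred hearts 1 to 3. Zbp1, a sensor of Z-form nucleic acid, measured 0.924 to 1.89 CPM in controls and 27.3, 7.76 and 2.52 CPM. These 2 genes had the order of hearts seen in Trim30a. The log2 fold change was 3.89 for Irf7 (edgeR adjusted p = 0.253) and 3.32 for Zbp1 (edgeR adjusted p = 0.139). Without transferred heart 1 it was 1.597 and 2.04. Irf5 was highest in heart 2, at 9.82, 12.5 and 8.35 CPM after transfer, and differed by 0.61 on the log2 scale. Ikbke, an IRF kinase, was highest in heart 3, at 1.37, 1.97 and 2.17 CPM, and differed by 0.97.

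All 42 tested genes of the list of other interferon-stimulated genes were higher on average, with a median log2 fold change of 0.80. Of the 42, 1 gene (Oas2) passed the adjusted threshold, and 32 were at p under 0.05 before adjustment. In 15 of 42 the groups did not overlap. The matching shares of all tested genes were 0.13% called higher, 7.17% higher at that p and 6% higher with groups apart. Oas2, a sensor of double-stranded RNA, rose by 1.29 on the log2 scale (edgeR adjusted p = 0.0384). This call was lost with limma-voom (adjusted p = 0.0703), with the identifier form as a covariate (adjusted p = 0.0682), within the hearts with number identifiers (adjusted p = 0.0999) and without any 1 of the control hearts or transferred heart 2 (adjusted p from 0.0726 to 0.157). The log2 fold change under these settings was 0.97 to 1.39. Over the 3 pathway lists together the number of genes called was 1 of 56 tested with all hearts and 0 without any of those 5 hearts. It was 23 of 56 without transferred heart 3. Of all tested genes 0.235% were called in either direction with all hearts and 1.8% without transferred heart 3. Oas3, Ifi207 and Herc6 had log2 fold changes of 3.93, 0.95 and 0.89, with edgeR adjusted p-values of 0.0546, 0.0764 and 0.0792. Oas3 passed the expression filter only through the transferred hearts, as its 4 control hearts were under the CPM cutoff of 0.485, and its value was 2.90 without transferred heart 1. Ifitm6 and Ifi209 also needed the transferred hearts to pass. Ifitm6 was at 0.437, 0.172, 0.384 and 0.946 CPM in control hearts, and Ifi209 at 0.146, 0.430, 0.153 and 1.14 CPM. The place of these genes in the counts above is therefore not independent of their direction. Summed over the list, control hearts were at 1768 to 2085 CPM and transferred hearts at 5235, 3063 and 2095 CPM.

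All 12 tested macrophage and monocyte markers were higher on average, and C1qb and Mrc1, named here after their values were seen, passed the adjusted threshold, as 0.13% of all tested genes did in this direction. Their summed level was 518 to 775 CPM in controls and 1286, 1366 and 899.9 CPM in transferred hearts 1 to 3. The 6 neutrophil markers summed to 10.1 to 14.2 CPM in controls and to 14.4, 269.5 and 40.0 CPM in transferred hearts. Among the transferred hearts, the neutrophil sum and the macrophage and monocyte sum were both highest in heart 2. Trim30b and Trim30c were also highest there, on few counts, at 14.5 and 23 in heart 2 against 4.5 and 20 in heart 1. Trim30a, Trim30d, Trim34a, Trim21 and Trim12c were highest in heart 1, and Trim5 and Trim12a in heart 3. Endothelial, fibroblast and pericyte markers had no gene past the adjusted threshold among 6, 5 and 3 tested, and their summed levels overlapped between the groups. Among the endothelial markers the groups did not overlap for Vwf, at 90.8 to 138 CPM in controls and 159 to 380 CPM after transfer (edgeR adjusted p = 0.1997), or for Tie1, which was lower (edgeR adjusted p = 0.185). The part of any of these in the TRIM values was not tested.

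**Figure D4:**
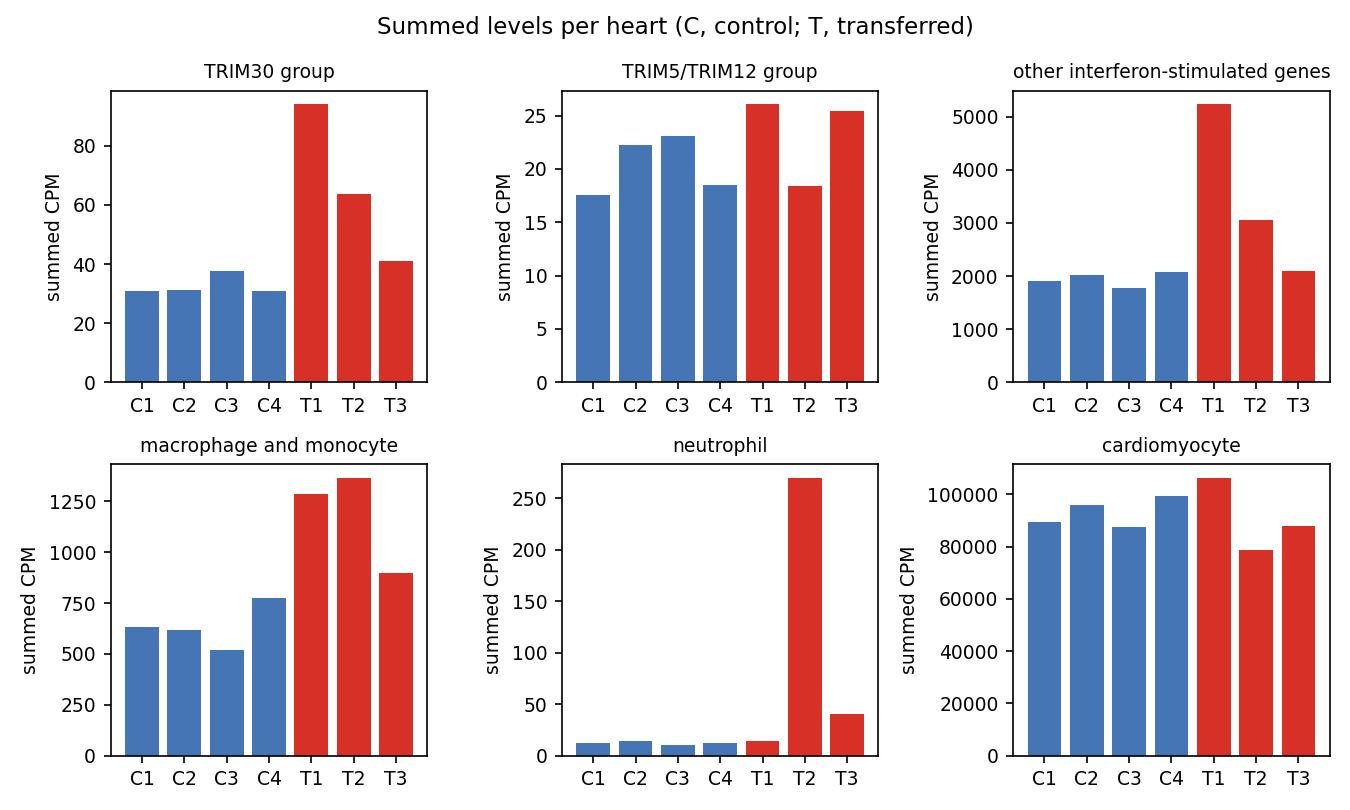
Summed CPM in each heart for the Trim30 genes, the Trim5 and Trim12 genes, the list of other interferon-stimulated genes and 3 marker lists (blue, control; red, transferred). The Trim30 sum runs 94.1, 63.7 and 41.1 CPM over transferred hearts 1 to 3, and the interferon-stimulated sum 5235, 3063 and 2095 CPM.

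The genes whose log2 CPM was most like the mean of the tested members over the 7 hearts were Parp12 (Pearson r = 0.99), Gm4070 (0.97), Gm13169 (0.97), Oas1a (0.97) and Pmf1 (0.97). These are descriptions over 7 libraries that share the group difference, and no p-value is attached. Parp12 encodes an interferon-induced ADP-ribosyltransferase and measured 36.8 to 45.5 CPM in controls and 77.4, 50.8 and 48.8 CPM after transfer. Oas1a, an oligoadenylate synthetase, measured 7.87 to 11.1 CPM in controls and 57.0, 25.5 and 15.6 CPM after transfer. Among the members themselves r over the 7 hearts was 0.95 between Trim21 and Trim34a, 0.93 between Trim21 and Trim30a and 0.88 between Trim30a and Trim30d. Trim12c had r of 0.64 with Trim21, 0.62 with Trim34a and 0.52 with Trim30a, and Trim5 had 0.34 with Trim30a. Trim12a had negative values with Trim21, Trim34a and the 3 tested Trim30 genes, down to -0.56 with Trim30d.

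Other TRIM genes gave the background of the family. Of the 22 tested, 12 were higher and 10 lower on average, with a median log2 fold change of 0.02, and none passed the adjusted threshold. At an unadjusted p-value under 0.05, 2 of 22 were higher (Trim14 and Trim55), beside 7.17% of all tested genes. With 1 heart left out the number at that p in either direction ran from 0 (without control heart 2 or transferred heart 2) to 3 (without control heart 3 or transferred heart 3). The groups did not overlap in 1 gene, Trim45, which was lower. These 3 genes are named after their values were seen. Trim14, on chromosome 4, was at 6.02 to 7.82 CPM in controls and at 11.6, 10.95 and 6.72 CPM after transfer. On chromosome 7 the log2 fold change was 0.49 for Trim34b, 0.39 for Trim6, 0.16 for Trim68, 0.35 for Trim66, 0.01 for Trim28, -0.11 for Trim3 and -0.05 for Trim72. The promoter windows of Trim6 and Trim68 had no match to the response element letters, and neither did that of Trim34b, which held the looser letters GAAANNGAA once, at positions -211 to -203.

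Between the first and the last member, 1949.9 kb apart, the table listed 124 genes, of which 87 were olfactory receptors. Only 18 of the 124 were tested, 8 of them members. The beta-globin genes Hbb-bs and Hbb-bt lie in this span and had log2 fold changes of -0.19 and -0.21. As red cell markers they summed to 3981, 6489, 14672 and 4081 CPM in control hearts 1 to 4 and to 13101.5, 2735 and 3249 CPM in transferred hearts 1 to 3. The highest control heart and the highest transferred heart were thus also those with the highest Trim30 sum of their group, and the part of blood content in the TRIM values was not tested. The olfactory receptor gene Olfr558 was lower in every transferred heart, at 22.5 ± 3.60 CPM (SD, n = 4) in controls and 15.4 ± 3.86 CPM (SD, n = 3) after transfer (edgeR adjusted p = 0.283). Olfr78 had a log2 fold change of -0.16. The small nuclear RNA LOC115486587 inside Trim5 had one of 0.87 (edgeR adjusted p = 0.487).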

How the data were processed

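The deposited file gives gene counts without normalization. Fractions occurred in 4.63% of the authors' values, which were taken as estimated counts and rounded for the tests. Per the submitters' processing notes, the tools were bcl2fastq 2.20.0.422, cutadapt 2.5, STAR 2.7.2b, featureCounts 1.6.4 and DESeq2 1.22.2, with build GRCm38.p6, and their settings are not given in the sources used here. Whether counting used strand is also not given. The table had 1 unfinished row, left out, and ended on chromosome 8, so later genes are not analysed here and column totals are not library depths. All 20343 gene identifiers and start positions matched RefSeq.

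Genes were filtered with filterByExpr, scaled by TMM and tested over all 7667 kept genes with the quasi-likelihood test of edgeR 4.0.16 with robust estimation (R 4.3.3), adjusted by the Benjamini-Hochberg method. Standard errors come from the F statistic. CPM are deposited counts scaled by TMM. The code was tested on simulated data. The likeness of other genes used log2(CPM + 0.5). Alternatives used DESeq2 1.42.0 and limma-voom of limma 3.58.1.

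The members, lists and motifs were chosen with earlier results of these data known. Named were all members, the other Trim genes of chromosome 7, the 4 genes with the smallest p-value of each pathway list, the 5 genes most like the members, and tested neighbours. The labels do not state that hearts come from separate litters or batches.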

Additional observations from a re-analysis of the deposited data

Results flagged for a closer look

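Among control hearts, 15 results with 4 values each were checked for a value far from the rest, of which chance would mark 0.75. One was marked, the summed level of the 4 Trim30 genes, at 37.7 CPM in control heart 3 against 30.7 to 31.3 CPM in the others. It was below the lowest transferred heart, at 41.1 CPM.

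On chromosome 7, 2 TRIM genes were under the expression filter, and in both the lowest transferred heart was above the highest control heart in CPM. This was so for 1.71% of the 4574 genes under the filter with a count in any heart. Trim30b had 25 counts over the transferred hearts and 9.5 over the controls. The transcribed pseudogene Trim30e-ps1, next to Trim30d, had 19.5 counts against 9.5. Neither was tested, and several of these counts are fractional.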

How the results depend on the processing

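The count of members past the threshold, 0 (5 at an unadjusted p-value under 0.05), became 1 with DESeq2, and ran from 0 to 1 in the fits that left out 1 heart, where it was 1 without transferred heart 3. The number at an unadjusted p-value under 0.05 was 2 without transferred heart 1 and 3 without the letter-identifier hearts, and 4 or 5 under the other settings. The member past the threshold with DESeq2 and without transferred heart 3 was Trim30a. Its log2 fold change ran from 0.63 to 1.27 over 19 alternatives with adjusted p from 0.00119 to 0.349. Trim21, Trim5, Trim34a, Trim30c and Trim30d kept a positive sign and Trim12a a negative one wherever an alternative tested them. Trim30c and Trim12a were not tested under the CPM filter. Trim12c turned to -0.030 without the 2 letter-identifier hearts and ran from -0.00079 to 0.36 with 1 heart left out. The log2 ratio of the summed Trim30 level, 1.02, ran from 0.68 to 1.27 with 1 heart left out. The looser letters GAAANNGAA matched 7 members too, 9.76% of all genes and the neighbour Trim34b.

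The interferon list genes past the threshold, 1 of 56 tested, became 3 of 56 with total count scaling and 3 of 58 with no filter beyond 1 count. With DESeq2 they became 19 of 56. Of all tested genes 0.235% passed in the main fit and 3.26% with DESeq2. The shares of all genes under total count scaling and with no filter beyond 1 count are not given here. The list genes past the threshold became 0 of 56 with limma-voom (37 at an unadjusted p-value under 0.05) and 0 with the identifier covariate (35). They became 0 without the letter-identifier hearts (21, beside 13.6% of all genes at that p), and ran from 0 to 23 with 1 heart left out. The cause was not tested. Without transferred heart 3 they were 23 of 56, beside 1.8% of all genes, and without any one control heart or transferred heart 2 they were 0.

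Without the letter-identifier hearts the log2 fold change was -0.010 for Trim28, -0.17 for Trim34b, 0.012 for Olfr78 and 0.039 for Gm16464. Gm16464 was at 0.0042 with total count scaling and 0.0010 with the identifier covariate. With 1 heart left out, the range was -0.025 to 0.063 for Trim28, -0.088 to 0.38 for Trim68, -0.27 to 0.86 for Trim34b, -0.11 to 0.023 for Trim72 and -0.15 to 0.028 for Trim54. It was -1.15 to 0.22 for Olfr78, -1.27 to 0.38 for Hbb-bt, -1.30 to 0.40 for Hbb-bs and -0.11 to 0.080 for Gm16464. Low counts limit Trim30b, Trim30c and Trim12a. The labels give no pairing of hearts between the 2 groups, so no paired analysis was made.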

Other observations

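The muscle members of the TRIM family gave the highest CPM among the Trim genes in the part of the genome analysed. Trim63 (MuRF1), Trim55 (MuRF2) and Trim54 (MuRF3) encode RING finger proteins of the sarcomere, and Trim72 (MG53) encodes a membrane repair protein of striated muscle. Trim72 was at 1256 CPM in controls and 1214 CPM after transfer, and Trim63 at 638 and 594 CPM. Trim54 was at 624 and 606 CPM, with a log2 fold change of -0.04. Trim55 was at 293 and 349 CPM, 0.25 higher on the log2 scale (edgeR adjusted p = 0.325).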
